A study of Mus musculus with 17 samples.

Results

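Genes of the integrated stress response and of its transcription factor ATF4 were followed in mouse bone marrow-derived macrophages that met tumour-conditioned medium and raised extracellular salt. The list holds 39 genes of the 55401 identifiers in the count table. They were chosen by name, as known ATF4, unfolded protein response and serine pathway genes, a rule that uses no measured value, though the list was drawn up with earlier results of these data known. All 39 passed the low-count filter in every comparison below.

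The libraries fall in 6 groups. In 3 libraries the cells were Lyz2-Cre-Kcnj2f/f, in which a Cre recombinase under control of the myeloid gene Lyz2 deletes the floxed potassium channel gene Kcnj2, and received B16F10 conditioned medium with KCl made isotonic. Another 3 libraries came from Kcnj2f/f cells without the Cre in the same isotonic medium. The remaining 11 were C57BL/6J cells: 3 in conditioned medium with added KCl, 2 in conditioned medium with added NaCl, 3 in conditioned medium alone and 3 in a group labelled control. Treatment lasted 6 hours with each salt at a final 40 mM; no separate concentration is given for the isotonic medium, nor what the control cells received. B16F10 is a mouse melanoma line, and every group other than control carried its conditioned medium. Lyz2-Cre marks myeloid cells by descent from the Lyz2 locus, so cells that express it late or weakly can keep the channel. The labels do not say whether replicates were separate animals or cultures, and the p-values therefore describe the spread among these libraries, which may be technical.

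As background, several kinases sense different stresses and converge on the translation factor eIF2. Once eIF2 is phosphorylated, most protein synthesis slows, while the mRNA of Atf4 is translated more because of short reading frames ahead of its coding sequence. ATF4 protein pairs with C/EBP family partners and binds a composite element in genes for amino acid synthesis, amino acid import, redox balance and its own feedback. The unfolded protein response of the endoplasmic reticulum feeds into the same route through PERK and has further arms in IRE1 with XBP1, and in ATF6. An mRNA level, the quantity measured here, reports neither eIF2 phosphorylation nor ATF4 protein.

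Promoter sequences show what some of the genes share. RefSeq (GRCm38.p6) windows of 300 bases, 250 before and 50 after the start site, were found for 36 of the 39 genes (44 windows). The core of the C/EBP-ATF response element, searched as TGATGNAA on both strands, lay in 10 of the 44 windows (22.7%), against 3.97% of 32851 promoter windows of the same length. The form TGATGCAA, which is contained in the core, lay in 7 windows (15.9%) against 0.895%. The 10 genes with a core match were Atf3, Jdp2, Nupr1, Chac1, Trib3, Vldlr, Asns, Pck2, Pycr1 and Herpud1. The endoplasmic reticulum stress element ERSE (CCAAT, 9 bases of any kind, then CCACG) lay in 1 window, that of Hspa5, against 0.119% of all windows. The genes were chosen by name as known ATF4 and unfolded protein response genes, so an excess of these elements was to be foreseen from the choice. A match describes the letters only and is not a measured binding site. Chac1 was called lower with NaCl but not KCl, a call lost when any 1 library was left out, and it was not called between the salts. Pycr1 was called lower with both salts, and Asns was called with neither. Below are the windows of these genes and of the chaperone gene Hspa5, with the matched element in capitals. Chac1 (chr2:119350992-119351291, plus strand) carries it in reverse orientation, beginning at position −193 from the start site. In Pycr1 (chr11:120643699-120643998, minus strand) it begins at −103, in Asns (chr6:7693160-7693459, minus strand) at −23, and in Hspa5 (chr2:34771840-34772139, plus strand) at −65.
Chac1: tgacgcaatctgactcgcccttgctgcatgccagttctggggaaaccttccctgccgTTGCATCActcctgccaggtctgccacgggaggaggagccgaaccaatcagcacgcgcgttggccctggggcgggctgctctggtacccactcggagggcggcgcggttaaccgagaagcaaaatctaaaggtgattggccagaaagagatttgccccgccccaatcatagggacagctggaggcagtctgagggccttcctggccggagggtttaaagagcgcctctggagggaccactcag
Pycr1: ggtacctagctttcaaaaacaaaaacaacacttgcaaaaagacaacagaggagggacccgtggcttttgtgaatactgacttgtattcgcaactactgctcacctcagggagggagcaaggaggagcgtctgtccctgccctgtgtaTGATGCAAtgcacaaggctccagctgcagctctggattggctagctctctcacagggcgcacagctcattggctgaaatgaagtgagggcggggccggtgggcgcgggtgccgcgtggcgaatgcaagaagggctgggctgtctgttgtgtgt
Asns: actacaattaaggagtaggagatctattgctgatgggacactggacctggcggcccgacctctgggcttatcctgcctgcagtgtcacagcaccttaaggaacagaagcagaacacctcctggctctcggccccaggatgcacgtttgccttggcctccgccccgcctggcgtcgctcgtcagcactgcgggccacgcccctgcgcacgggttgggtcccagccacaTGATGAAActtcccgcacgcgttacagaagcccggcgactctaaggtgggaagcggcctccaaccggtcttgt
Hspa5: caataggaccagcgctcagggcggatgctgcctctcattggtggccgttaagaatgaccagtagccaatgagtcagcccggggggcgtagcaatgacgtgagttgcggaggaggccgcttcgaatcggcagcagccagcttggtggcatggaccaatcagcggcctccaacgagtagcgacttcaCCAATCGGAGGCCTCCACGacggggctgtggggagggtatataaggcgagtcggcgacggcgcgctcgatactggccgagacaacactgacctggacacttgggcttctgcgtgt

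Library totals ran from 13503869 to 19391623 counts. Levels are given as CPM, counts relative to the library total, scaled by TMM factors over all 17 libraries, in the order of replicates 1, 2 and 3 within a group. Transcript length bore on the counts unequally: the slope of a library's log2 deviation on log2 length lay between −0.13 and −0.02 in knockout and between −0.15 and 0.10 in floxed cells. It lay between −0.09 and 0.00 for KCl, 0.06 and 0.10 for NaCl, 0.04 and 0.09 for conditioned medium alone and 0.05 and 0.10 for control. Replicates of the KCl and floxed groups also differed most from each other, with a chi-square per degree of freedom of 31.5 to 98.6 and 27.6 to 146, against 5.95 to 37.3 in the knockout group and 2.08 to 5.83 in the control, conditioned medium and NaCl groups. The macrophage identity of the cells fitted their markers: Csf1r reached at least 623 CPM and Cd68 at least 423 CPM in every library. The melanoma markers Tyr and Dct had 0 counts in all 17 libraries, and the 6 melanoma markers summed to at most 1.23 CPM. The 8 neutrophil markers, of which Retnlg was at 0 everywhere, had summed levels of 121 to 157 CPM in knockout and 118 to 174 CPM in floxed cells. Those sums were 44.0 to 52.3 CPM for KCl, 63.4 to 66.0 CPM for NaCl, 165 to 180.5 CPM for conditioned medium alone and 62.5 to 63.3 CPM for control. The 4 dendritic cell markers summed to 4.50 to 5.28 CPM in knockout, 3.80 to 6.47 CPM in floxed, 15.6 to 22.5 CPM in KCl, 6.23 to 7.33 CPM in NaCl, 1.45 to 4.30 CPM in conditioned medium and 1.47 to 1.81 CPM in control libraries. The 5 stromal markers summed to 162 to 223 CPM in knockout, 229 to 466 CPM in floxed, 272 to 438 CPM in KCl, 445 to 501 CPM in NaCl, 468 to 520.0 CPM in conditioned medium and 542 to 672 CPM in control libraries. The part of these markers in the results was not tested.

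**Figure D1:**
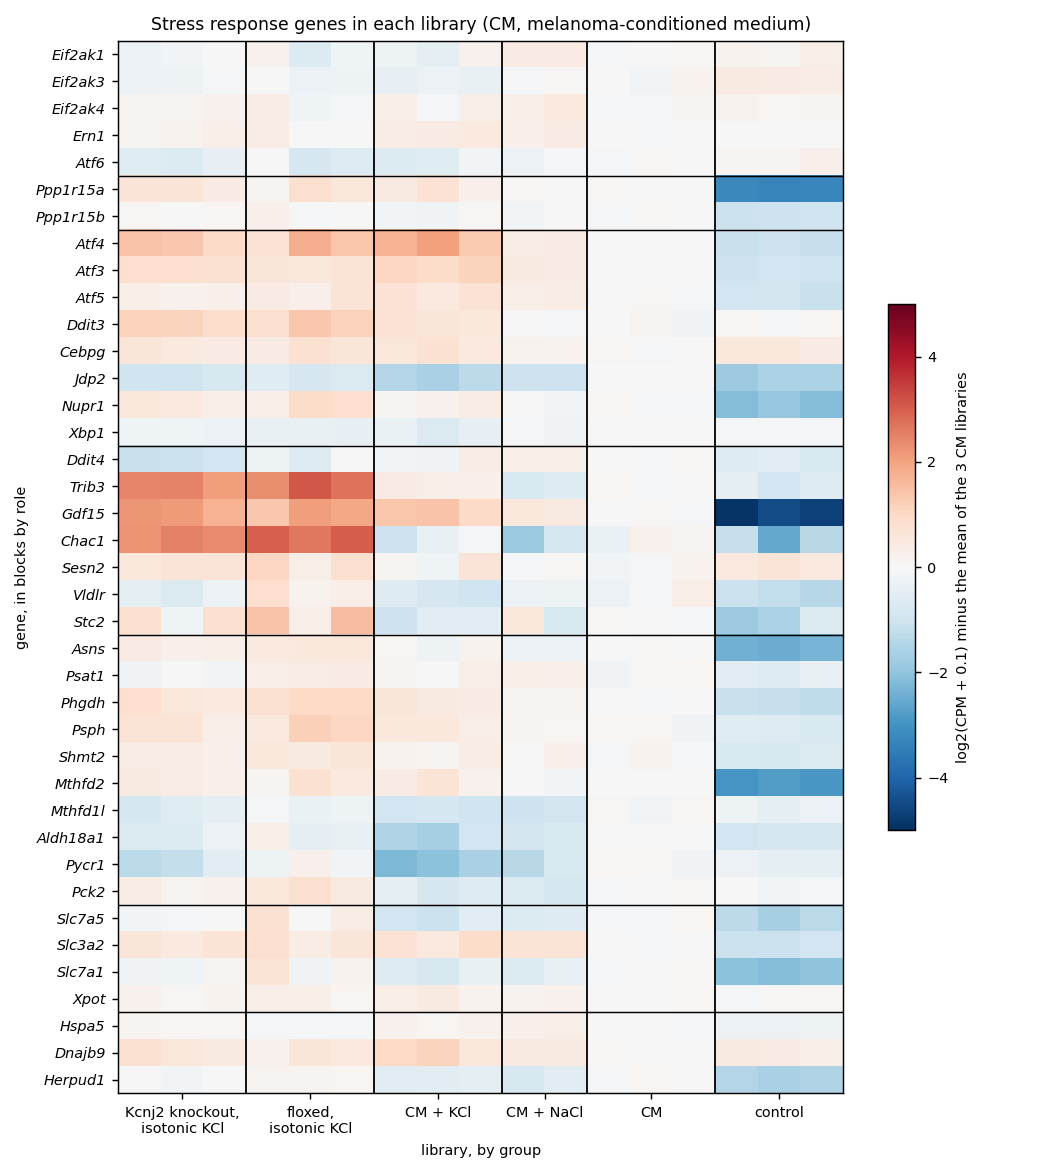
Heat map of the 39 genes (rows, in blocks by role) in the 17 libraries (columns, by group); colour is log2(CPM + 0.1) minus the mean of the 3 libraries in conditioned medium (CM) alone. Control libraries are lowest for Gdf15, Ppp1r15a, Mthfd2 and Asns, and the 6 isotonic libraries are highest for Trib3 and Chac1.

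Conditioned medium was first set against control. What the control cells received is not given, so substances released by the melanoma cells cannot be told apart from other differences between the media. Most of the stress response genes were higher: 26 of the 39 rose, 4 fell and 9 were not called in edgeR's quasi-likelihood test at an adjusted p under 0.05 (Benjamini-Hochberg over 14519 genes). Over all genes tested 27.2% were called higher and 26.4% lower. The median log2 fold change of the 39 genes was 0.77, against −0.04 over all genes. With library totals as the only scaling 21 rose and 11 fell: Ddit4, Trib3, Psat1, Mthfd1l and Hspa5 were no longer called higher, and Eif2ak1, Eif2ak4, Ern1, Atf6, Ddit3, Xbp1 and Xpot were called lower. The rise was steepest in Gdf15, Ppp1r15a, Mthfd2 and Asns, while the kinases that start the pathway were mostly not called. In bulk RNA, a change in the number of expressing cells and a change in RNA per cell cannot be told apart.

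Of the 5 sensors, Eif2ak3, which encodes PERK, was the 1 gene called, at 19.3, 17.9 and 22.1 CPM in conditioned medium against 26.9, 26.3 and 25.6 CPM in control (log2 fold change −0.42, SE 0.10, adjusted p = 0.00247). Log2 fold changes of the other 4 sensors ran from −0.20 for Eif2ak1 to 0.01 for Ern1, but with library totals alone they were −0.33 to −0.54, all called lower. Both regulatory subunits of the phosphatase that removes the phosphate from eIF2 rose. Ppp1r15a (GADD34), the inducible subunit, stood at 235, 225 and 222 CPM in conditioned medium and 24.1, 22.3 and 23.3 CPM in control (log2 fold change 3.28, SE 0.11, adjusted p = 1.6e-11). Its constitutive counterpart Ppp1r15b had 168, 182 and 175 CPM in conditioned medium and 82.8, 85.2 and 88.1 CPM in control (log2 fold change 1.03, SE 0.08, adjusted p = 1.1e-07). Neither pair of groups overlapped.

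Among the 8 transcription factors 5 rose, 1 fell and 2 were not called. Atf4 itself measured 301, 299 and 294 CPM in conditioned medium, against 138, 144 and 135 CPM in control (log2 fold change 1.09, SE 0.13, adjusted p = 1.2e-05). All conditioned medium libraries lay above all control libraries. Nupr1, a small stress-induced chromatin protein, had 63.8, 57.5 and 57.8 CPM in conditioned medium against 13.3, 15.8 and 13.1 CPM in control (log2 fold change 2.08, SE 0.10, adjusted p = 8.2e-10). Jdp2, a bZIP repressor that dimerises with Jun proteins, had 45.3, 47.2 and 46.0 CPM in conditioned medium against 12.9, 15.3 and 15.2 CPM in control (log2 fold change 1.66, SE 0.10, adjusted p = 8.5e-09). Both were separated without overlap. Atf3 and Atf5, bZIP factors induced downstream of ATF4, each rose with a log2 fold change of 0.99. Exons of Atf5 overlap those of Nup62 on the opposite strand, and the strand setting of the counts is not given. Nup62 had 79.7, 82.1 and 83.8 CPM in conditioned medium and 44.0, 44.5 and 44.3 CPM in control, so reads of the shared stretch cannot be told apart. Cebpg, a C/EBP partner of ATF4, fell (log2 fold change −0.49, SE 0.08, adjusted p = 1.9e-04). Ddit3, which encodes the pro-apoptotic factor CHOP, had 12.8, 13.9 and 11.3 CPM in conditioned medium and 13.3, 11.7 and 13.4 CPM in control (log2 fold change −0.02, SE 0.11, adjusted p = 0.88), and the groups overlapped. Xbp1, the factor spliced by IRE1, had 154, 152 and 152 CPM in conditioned medium and 144, 142 and 148 CPM in control (log2 fold change 0.07, SE 0.09, adjusted p = 0.56); with library totals as the only scaling its value was −0.27 and called lower.

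Of the 7 other ATF4 targets 6 rose and 1 fell. Gdf15, a secreted stress cytokine, had the largest fold change of the 39 genes, with 195, 197 and 178 CPM in conditioned medium against 6.20, 8.35 and 7.31 CPM in control (log2 fold change 4.69, SE 0.15, adjusted p = 9.7e-12). Chac1, which degrades glutathione, stood at 1.39, 2.03 and 1.92 CPM in conditioned medium and 0.734, 0.212 and 0.616 CPM in control (log2 fold change 1.76, SE 0.44, adjusted p = 0.00382), so it was near the lower end of detection in both. Trib3, a pseudokinase that feeds back on ATF4, had 3.98, 3.50 and 3.72 CPM in conditioned medium and 2.66, 1.86 and 2.38 CPM in control (log2 fold change 0.69, SE 0.18, adjusted p = 0.00542). No library of conditioned medium overlapped control for these 3 genes. The lipoprotein receptor gene Vldlr had 4.11, 4.86 and 6.46 CPM in conditioned medium against 2.34, 2.08 and 1.81 CPM in control (log2 fold change 1.30, SE 0.20, adjusted p = 9.9e-05). For Stc2, a secreted glycoprotein, the values were 1.26, 1.23 and 1.16 CPM in conditioned medium and 0.275, 0.339 and 0.698 CPM in control (log2 fold change 1.44, SE 0.44, adjusted p = 0.0141); its call was lost without control 1 (adjusted p = 0.0599) or control 2 (0.0568). Sesn2, a leucine-binding inhibitor of mTORC1, fell (log2 fold change −0.54, SE 0.17, adjusted p = 0.016). That call was lost without control 2, conditioned medium 1 or conditioned medium 2 (adjusted p = 0.0512, 0.065 and 0.0565).

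Amino acid synthesis and one-carbon genes rose in 8 of 10 cases, and none fell. Among those that rose, Psph (0.66) shares exon stretches with Cct6a on the opposite strand, whose reads cannot be told apart there. Cct6a had 258, 262 and 249.9 CPM in conditioned medium and 147, 158 and 147 CPM in control. Mthfd2, the mitochondrial folate enzyme, had 143, 144 and 141 CPM in conditioned medium against 18.2, 20.3 and 18.8 CPM in control (log2 fold change 2.89, SE 0.11, adjusted p = 6.4e-11). Asns, asparagine synthetase and a classical ATF4 target, had 90.3, 97.0 and 90.9 CPM in conditioned medium against 17.3, 16.5 and 18.5 CPM in control (log2 fold change 2.40, SE 0.11, adjusted p = 3.4e-10). Neither overlapped between the groups. The serine pathway enzymes rose less: Psat1 had 30.5, 36.7 and 36.6 CPM in conditioned medium and 23.4, 21.9 and 26.5 CPM in control (log2 fold change 0.53, SE 0.11, adjusted p = 0.00144), and Phgdh, the first enzyme of the pathway, had a log2 fold change of 1.19. Pycr1, which makes proline, and Pck2, mitochondrial PEP carboxykinase, were not called (0.42 and 0.07).

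Among the 4 transport genes 3 rose. Slc7a1, the cationic amino acid transporter CAT1, had 51.0, 54.1 and 55.9 CPM in conditioned medium against 12.8, 11.8 and 13.3 CPM in control (log2 fold change 2.08, SE 0.13, adjusted p = 9.0e-09). Slc7a5, the large neutral amino acid transporter LAT1, had 26.7, 26.8 and 30.1 CPM in conditioned medium against 11.2, 8.77 and 10.8 CPM in control (log2 fold change 1.44, SE 0.14, adjusted p = 1.0e-06). Its heavy chain partner Slc3a2 rose as well (log2 fold change 1.02, SE 0.10, adjusted p = 1.1e-06), and the tRNA exporter Xpot was not called (0.00). In the endoplasmic reticulum block, Herpud1, a factor of protein degradation from that compartment, had 86.8, 95.8 and 88.6 CPM in conditioned medium against 33.1, 29.5 and 31.5 CPM in control (log2 fold change 1.52, SE 0.09, adjusted p = 5.2e-09). Hspa5, the chaperone BiP and a marker of the unfolded protein response, had 848, 832 and 798 CPM in conditioned medium and 680.0, 678 and 689 CPM in control (log2 fold change 0.27, SE 0.07, adjusted p = 0.00374), a direction that flipped to −0.07 with library totals as the only scaling. The co-chaperone Dnajb9 (ERdj4) fell (log2 fold change −0.41, SE 0.11, adjusted p = 0.00812).

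**Figure D2:**
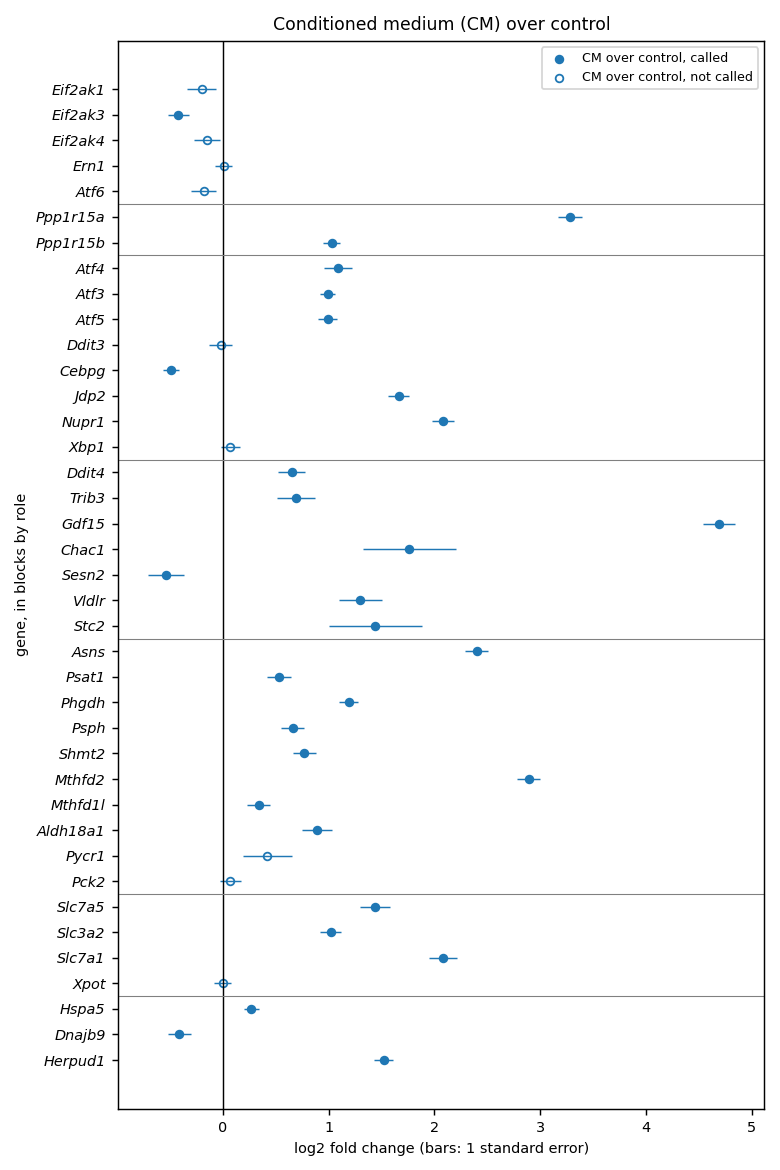
Log2 fold change of each gene (rows, in blocks by role) in conditioned medium (CM) over control, with bars of 1 standard error; filled points passed an adjusted p of 0.05. Of the 39 genes 26 lie right of 0 with a filled point and 4 left of it.

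Other genes of the pathway were taken from lists outside the 39. Of 16 further ATF4 target genes tested, 6 rose and 4 fell in conditioned medium (median 0.18), where 27.2% of all genes were called higher and 26.4% lower. The same shares apply to the other lists in this comparison. The cystine transporter Slc7a11 averaged 1041 ± 41.0 CPM in conditioned medium and 14.8 ± 1.21 CPM in control (log2 fold change 6.13, SE 0.10, adjusted p = 2.7e-14; SD, n = 3 each). Sqstm1, an autophagy receptor, averaged 3416 ± 39.4 CPM in conditioned medium and 563 ± 15.1 CPM in control (log2 fold change 2.59, SE 0.06, adjusted p = 1.4e-12). Of 16 genes for eIF2 and its regulators 10 rose and 1 fell, with Nck1, an adaptor that also modulates eIF2 phosphorylation (1.62), and Eif2s2, the beta subunit of eIF2 (1.18), leading. Of 28 endoplasmic reticulum folding and degradation genes 10 rose and 5 fell (median 0.15). Of 15 further serine, glycine and folate genes 4 rose and 6 fell, among them methionine synthase, Mtr (log2 fold change −1.73, SE 0.11, adjusted p = 1.7e-08). Mitochondrial folding genes rose in 4 of 8 cases and none fell.

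Conditioned medium with KCl against conditioned medium alone asks what added KCl changes. Potassium, chloride and tonicity differ together in this comparison and cannot be told apart. Atf4 was about 3 times as high with KCl and 5 more of the transcription factors rose. Pycr1, Aldh18a1, Slc7a5, Slc7a1 and Herpud1, of proline synthesis, amino acid import and protein degradation, fell, while Slc3a2, also of amino acid import, rose. Of the 39 genes 16 rose, 12 fell and 11 were not called, where 26.6% of all 14519 genes were called higher and 27.4% lower, so the members' share called lower was near that of all genes. The median log2 fold change was 0.17, against −0.01 over all genes. With library totals as the only scaling the count was 11 up and 13 down, without Ern1, Nupr1, Psph, Xpot and Hspa5 among those higher. With the length slope as a covariate it was 12 up and 6 down: 8 genes were no longer called higher (Ppp1r15a, Ddit3, Nupr1, Phgdh, Psph, Mthfd2, Xpot and Hspa5) and 6 no longer lower (Eif2ak3, Atf6, Xbp1, Vldlr, Slc7a5 and Slc7a1).

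Atf4 reached 993, 1233 and 743 CPM with KCl, against 301, 299 and 294 CPM in conditioned medium alone (log2 fold change 1.72, SE 0.13, adjusted p = 3.7e-07). Every KCl library lay above every library without KCl, but KCl replicate 3, whose length slope was 0.00, was the lowest and replicates 1 and 2, with slopes of −0.07 and −0.09, were higher. With the slope as a covariate the fold change was 1.17 (adjusted p = 3.0e-05). Atf3 had 672, 624 and 722 CPM with KCl against 328, 339.6 and 324 CPM in conditioned medium alone (log2 fold change 1.01, SE 0.07, adjusted p = 1.5e-07), and its highest KCl value was in replicate 3, where Atf4 was lowest. Ddit3 rose with 21.1, 19.1 and 18.3 CPM with KCl against 12.8, 13.9 and 11.3 CPM in conditioned medium alone (log2 fold change 0.61, SE 0.11, adjusted p = 5.2e-04), and was not called with the slope as a covariate (0.54, adjusted p = 0.0532). The groups did not overlap. Atf5 and Cebpg rose (0.64 and 0.59). The call of Nupr1 (log2 fold change 0.24, SE 0.09, adjusted p = 0.0426) was lost without conditioned medium 2 or 3 or KCl 3 (adjusted p = 0.139, 0.132 and 0.0881).

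Both transcription factors that fell were again measured without overlap. Jdp2 had 16.9, 15.1 and 18.4 CPM with KCl, against 45.3, 47.2 and 46.0 CPM in conditioned medium alone (log2 fold change −1.47, SE 0.10, adjusted p = 1.2e-07), and its control libraries had 12.9, 15.3 and 15.2 CPM. Xbp1 had 119.8, 92.5 and 116 CPM with KCl against 154, 152 and 152 CPM in conditioned medium alone (log2 fold change −0.49, SE 0.09, adjusted p = 5.6e-04); with the slope as a covariate its adjusted p was 0.0765. Exons of Ddit3, Atf5, Psph and Eif2ak1 overlap those of Mars, Nup62, Cct6a and Aimp2 on the opposite strand. The strand setting of the counts is not given in the sources used here, so reads of the shared stretches cannot be told apart. Mars had 19.3, 20.3 and 35.0 CPM with KCl and 57.04, 54.8 and 62.4 CPM in conditioned medium alone, the reverse of Ddit3. Nup62 had 112, 99.2 and 120.3 CPM with KCl and 79.7, 82.1 and 83.8 CPM in conditioned medium alone. Cct6a, with 221, 235 and 205 CPM with KCl and 258, 262 and 249.9 CPM in conditioned medium alone, was counted far above Psph, at 21.7, 21.8 and 19.2 CPM with KCl and 13.4 to 16.2 CPM in conditioned medium alone.

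Among sensors and phosphatase subunits, Ern1, which encodes IRE1, rose (log2 fold change 0.42, SE 0.08, adjusted p = 6.6e-04), while Eif2ak3 and Atf6 fell (−0.38 and −0.47); with the slope as a covariate the value of Atf6 turned to 0.05 and Eif2ak3 was not called (−0.31, adjusted p = 0.231). Ppp1r15a stood at 312, 377 and 273 CPM with KCl and 235, 225 and 222 CPM in conditioned medium alone (log2 fold change 0.49, SE 0.10, adjusted p = 8.8e-04), and was not called with that covariate (0.13).

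Of the 7 other ATF4 targets just 1 rose, 1 fell and 5 were not called. Gdf15 had 496, 517 and 367 CPM with KCl against 195, 197 and 178 CPM in conditioned medium alone (log2 fold change 1.26, SE 0.12, adjusted p = 2.1e-06), again with its lowest KCl value in replicate 3 and no overlap. Trib3 had 4.97, 4.64 and 4.44 CPM with KCl and 3.98, 3.50 and 3.72 CPM in conditioned medium alone (log2 fold change 0.32, SE 0.18, adjusted p = 0.149); the groups did not overlap but the difference was not called. Chac1 had 0.806, 1.34 and 1.63 CPM with KCl and 1.39, 2.03 and 1.92 CPM in conditioned medium alone (log2 fold change −0.51, SE 0.42, adjusted p = 0.321), with overlap. Vldlr was the gene of this block that fell (log2 fold change −0.88, SE 0.21, adjusted p = 0.00265).

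In amino acid synthesis 3 genes rose, 4 fell and 3 were not called. Pycr1 had 0.537, 0.624 and 0.875 CPM with KCl, against 3.16, 3.07 and 2.56 CPM in conditioned medium alone (log2 fold change −2.09, SE 0.29, adjusted p = 4.4e-05). Aldh18a1, which makes the proline precursor pyrroline-5-carboxylate, had 8.59, 7.76 and 12.5 CPM with KCl against 23.9, 24.8 and 24.9 CPM in conditioned medium alone (log2 fold change −1.35, SE 0.15, adjusted p = 6.5e-06). Both proline genes were separated without overlap. Mthfd1l, a mitochondrial folate enzyme, and Pck2 fell too (−0.96 and −0.66). Asns had 96.0, 78.5 and 105 CPM with KCl and 90.3, 97.0 and 90.9 CPM in conditioned medium alone (log2 fold change 0.00, SE 0.10, adjusted p = 0.989). Psat1 had 37.8, 34.4 and 43.8 CPM with KCl and 30.5, 36.7 and 36.6 CPM in conditioned medium alone (log2 fold change 0.15, SE 0.11, adjusted p = 0.275). Both overlapped between the groups, and Psat1 was called higher with the slope as a covariate (0.57, adjusted p = 0.00558). Phgdh, Psph and Mthfd2 rose, with log2 fold changes of 0.48, 0.44 and 0.44, and none of the 3 was called with the slope as a covariate (0.39, 0.16 and 0.06, adjusted p = 0.0561, 0.551 and 0.766).

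The paired chains of the LAT1 transporter moved apart: Slc7a5 had 14.3, 13.2 and 18.9 CPM with KCl against 26.7, 26.8 and 30.1 CPM in conditioned medium alone (log2 fold change −0.85, SE 0.14, adjusted p = 1.7e-04), while Slc3a2 had 838, 707 and 962 CPM against 512, 492 and 520.4 CPM (log2 fold change 0.71, SE 0.10, adjusted p = 4.5e-05). Neither overlapped. Slc7a1 fell (−0.60), and the falls of Slc7a5 and Slc7a1 were not called with the slope as a covariate (−0.35 and −0.08). In the endoplasmic reticulum block, Dnajb9 had 93.9, 99.95 and 68.9 CPM with KCl against 48.8, 45.9 and 45.7 CPM in conditioned medium alone (log2 fold change 0.89, SE 0.11, adjusted p = 2.6e-05) and Herpud1 had 61.9, 60.3 and 63.8 CPM against 86.8, 95.8 and 88.6 CPM (log2 fold change −0.55, SE 0.09, adjusted p = 1.2e-04). Hspa5 had 955, 887 and 968 CPM with KCl and 848, 832 and 798 CPM in conditioned medium alone (log2 fold change 0.17, SE 0.07, adjusted p = 0.0425), a call that was lost without KCl 1 or without conditioned medium 1, 2 or 3 (adjusted p between 0.0649 and 0.153) and a direction that flipped with library totals alone (−0.04).

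Of the 10 genes with a C/EBP-ATF core in the promoter window, 2 rose with KCl (Atf3 and Nupr1), 5 fell (Jdp2, Vldlr, Pck2, Pycr1 and Herpud1) and 3 were not called (Chac1, Trib3 and Asns), with a median log2 fold change of −0.53. Of the 26 genes whose windows held no match, 14 rose and 5 fell (median 0.27). In conditioned medium against control the same 10 genes had 8 higher and none lower (median 1.41), and the 26 had 16 higher and 4 lower (median 0.59). No test was made on these counts.

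Outside the 39 genes, 7 of 16 further ATF4 targets rose with KCl and 2 fell (median 0.38). For these and the other lists, the shares over all genes were 26.6% higher and 27.4% lower. The neutral amino acid transporter Slc38a2 (SNAT2) averaged 438 ± 11.1 CPM with KCl and 110.0 ± 8.84 CPM in conditioned medium alone (log2 fold change 1.98, SE 0.09, adjusted p = 1.8e-09; SD, n = 3 each). Slc7a11 and Sqstm1 rose further (1.30 and 1.03). Among 16 genes for eIF2 and its regulators 4 rose and 6 fell: Eif2b3, a subunit of the eIF2 exchange factor (log2 fold change −1.63, SE 0.12, adjusted p = 2.4e-07), and Oma1, the mitochondrial protease that can start the response through DELE1 (log2 fold change −1.76, SE 0.14, adjusted p = 5.1e-07), fell, whereas Impact, an inhibitor of GCN2, rose (0.67). Folding and degradation genes of the endoplasmic reticulum had 5 of 28 higher and 7 lower (median −0.08). Serine, glycine and folate genes had 6 of 15 higher and 3 lower, with the mitochondrial serine transporter Sfxn1 at −1.34 and cytosolic Shmt1 at 1.34. Mitochondrial folding genes had 2 of 8 higher and 2 lower.

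**Figure D3:**
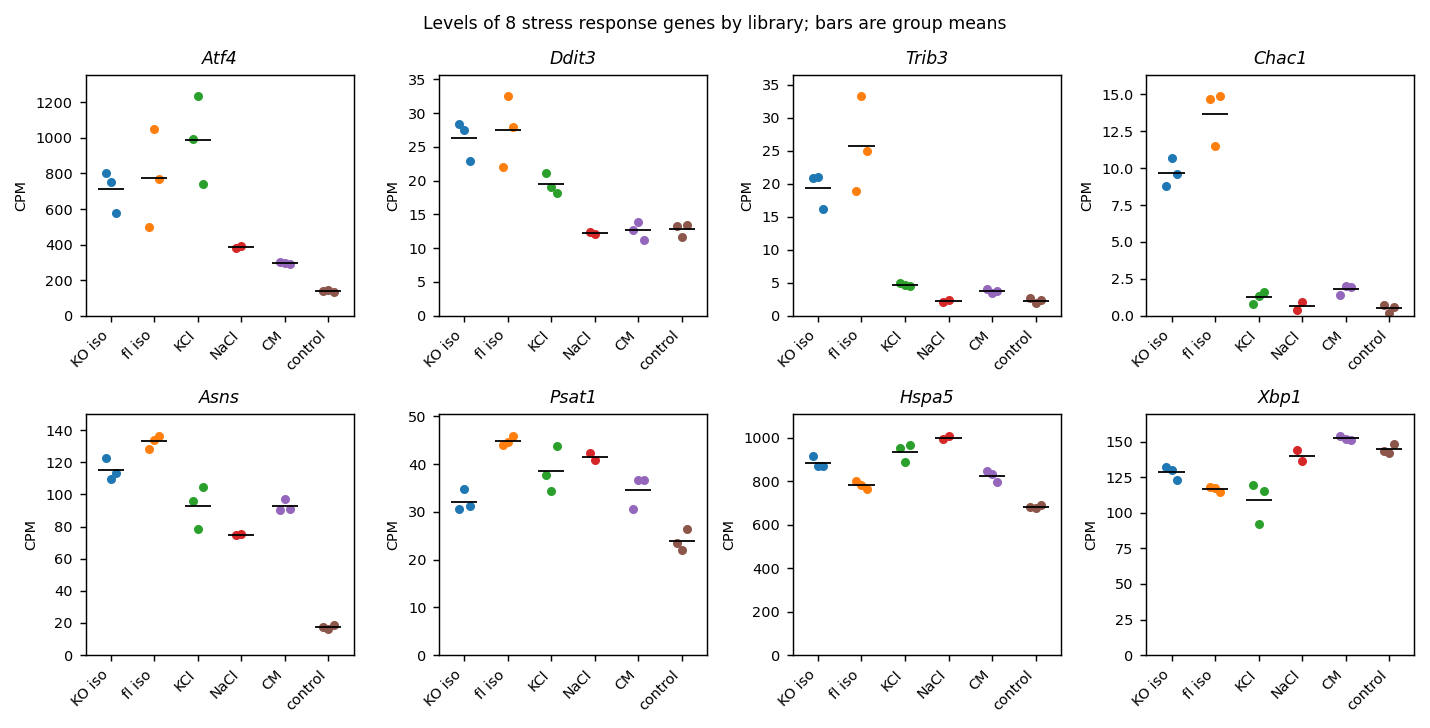
CPM of 8 genes (1 panel each, axes from 0) in each library, from left to right in Kcnj2 knockout and floxed cells with isotonic KCl, KCl, NaCl, conditioned medium (CM) alone and control; points are libraries and bars group means. Atf4 is high in all libraries with KCl, Trib3 and Chac1 in the 6 isotonic libraries, and Asns in every group but control.

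Conditioned medium with NaCl against conditioned medium alone asks what the same concentration of another chloride salt changes, and shares its 3 conditioned medium libraries with the KCl comparison. Sodium, chloride and tonicity differ together here and cannot be told apart, and the NaCl group has 2 libraries. Fewer of the 39 genes were called: 8 rose, 10 fell and 21 were not called, where 13.7% of all genes were higher and 14.9% lower. The median log2 fold change was 0.01, against −0.01 over all genes. Pycr1 and Aldh18a1 of proline synthesis, Mthfd1l of folate metabolism and Slc7a5 and Slc7a1 of amino acid import were among those that fell. Slc3a2, also of amino acid import, rose, and the folate genes Mthfd2 and Shmt2 were not called. Atf4 was not called. Without NaCl 1 the counts were 3 and 5, and without NaCl 2 they were 2 and 8.

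Atf4 measured 383 and 391 CPM with NaCl and 301, 299 and 294 CPM in conditioned medium alone (log2 fold change 0.38, SE 0.14, adjusted p = 0.0634). These groups did not overlap, and the gene was called with the length slope as a covariate or in a fit of these 2 groups alone (0.49 and 0.39). It was also called with no low-count filter (0.38, adjusted p = 0.00276). Atf3 rose (log2 fold change 0.45, SE 0.08, adjusted p = 8.2e-04), as did Atf5 (0.36), whose call was lost without either NaCl library or without conditioned medium 3. Jdp2 had 22.7 and 22.2 CPM with NaCl against 45.3, 47.2 and 46.0 CPM in conditioned medium alone (log2 fold change −1.03, SE 0.11, adjusted p = 2.0e-05). Ddit3 had 12.4 and 12.1 CPM with NaCl and 12.8, 13.9 and 11.3 CPM in conditioned medium alone (log2 fold change −0.04, SE 0.13, adjusted p = 0.869), and Xbp1 had 144 and 136 CPM and 154, 152 and 152 CPM (log2 fold change −0.12, SE 0.10, adjusted p = 0.448). Neither was called. Of the sensors, Eif2ak1 was not called (log2 fold change 0.41, SE 0.15, adjusted p = 0.0573), nor with library totals alone. It was called with DESeq2, RLE factors or a stricter filter (adjusted p = 0.0409, 0.0473 and 0.0479). No low-count filter, a replicate block or the length slope as a covariate also called it (0.00642, 0.00568 and 0.00897). Ern1 and Eif2ak4, which encodes the amino acid sensor GCN2, rose (0.34 and 0.39). Neither was called without NaCl 2 (adjusted p = 0.176 and 0.325), with library totals alone (0.0602 and 0.143) or with no low-count filter (0.052 and 0.0738), and Eif2ak4 was also lost without NaCl 1, conditioned medium 1 or conditioned medium 2 (0.0777, 0.118 and 0.128).

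Trib3 stood at 2.15 and 2.34 CPM with NaCl against 3.98, 3.50 and 3.72 CPM in conditioned medium alone (log2 fold change −0.73, SE 0.21, adjusted p = 0.0189). Chac1 had 0.419 and 0.915 CPM with NaCl against 1.39, 2.03 and 1.92 CPM in conditioned medium alone (log2 fold change −1.41, SE 0.50, adjusted p = 0.0486). Both lay below conditioned medium without overlap, but the call of Trib3 was lost without NaCl 1, NaCl 2 or conditioned medium 1 (adjusted p = 0.134, 0.0805 and 0.0574) and that of Chac1 without any 1 of the 5 libraries (0.0595 to 0.329). Gdf15 rose, with 272 and 261 CPM with NaCl against 195, 197 and 178 CPM in conditioned medium alone (log2 fold change 0.49, SE 0.13, adjusted p = 0.013), a call lost without NaCl 1, NaCl 2 or conditioned medium 3.

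Amino acid synthesis genes had none higher and 4 lower. Pycr1 had 1.05 and 1.66 CPM with NaCl against 3.16, 3.07 and 2.56 CPM in conditioned medium alone (log2 fold change −1.11, SE 0.28, adjusted p = 0.00957), and was not called without NaCl 1 (0.129). Mthfd1l, Pck2 and Aldh18a1 fell with log2 fold changes of −0.99, −0.79 and −0.83. Asns had 74.6 and 75.3 CPM with NaCl and 90.3, 97.0 and 90.9 CPM in conditioned medium alone (log2 fold change −0.30, SE 0.11, adjusted p = 0.061), and Psat1 had 42.3 and 40.8 CPM and 30.5, 36.7 and 36.6 CPM (log2 fold change 0.27, SE 0.12, adjusted p = 0.126); neither was called. Slc3a2 rose (log2 fold change 0.69, SE 0.11, adjusted p = 3.3e-04), Slc7a5 and Slc7a1 fell (−0.66 and −0.51), and neither Slc7a5 nor Slc7a1 was called without NaCl 1. Hspa5 had 993 and 1009.7 CPM with NaCl against 848, 832 and 798 CPM in conditioned medium alone (log2 fold change 0.28, SE 0.07, adjusted p = 0.0105), a call lost without either NaCl library. Herpud1 fell (−0.67) and Dnajb9 rose (0.46), the last lost without NaCl 1, NaCl 2 or conditioned medium 2. Of the further ATF4 targets 5 of 16 rose and none fell, with Slc7a11 (1.51), Slc38a2 (1.44) and Sqstm1 (0.83). Over all genes 13.7% were higher and 14.9% lower. The other lists had 2 higher and 4 lower of 16 eIF2 genes, 2 and 1 of 28 endoplasmic reticulum genes, 4 and 1 of 15 serine, glycine and folate genes, and 0 and 0 of 8 mitochondrial folding genes.

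KCl against NaCl in conditioned medium sets the cations against each other at equal concentration. Atf4, Ddit3, Trib3 and Gdf15 were higher with KCl, whereas Mthfd1l, Pck2, Slc7a5, Slc7a1 and Herpud1, lower than conditioned medium alone with each salt, were not called between the salts. Of the 39 genes 12 were higher with KCl, 6 lower and 21 not called, where 15.4% of all genes were higher and 16.2% lower; the median log2 fold change was 0.08, against −0.04 over all genes. There were 9 and 2 without KCl 1, 6 and 1 without NaCl 1, 4 and 0 without NaCl 2, and 0 and 0 in a fit of these 5 libraries alone, which called 8 genes in all; the split was 8 and 9 with library totals alone. With the length slope as a covariate 2 were higher, Atf3 and Asns, and none lower.

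Atf4 had 993, 1233 and 743 CPM with KCl against 383 and 391 CPM with NaCl (log2 fold change 1.34, SE 0.15, adjusted p = 3.0e-04). Trib3 had 4.97, 4.64 and 4.44 CPM with KCl against 2.15 and 2.34 CPM with NaCl (log2 fold change 1.04, SE 0.21, adjusted p = 0.00403). Ddit3 had 21.1, 19.1 and 18.3 CPM with KCl against 12.4 and 12.1 CPM with NaCl (log2 fold change 0.65, SE 0.13, adjusted p = 0.00377). None of these 3 genes overlapped between the salts, and without NaCl 2 the adjusted p of Ddit3 was 0.0503. All 3 had an adjusted p of 0.0668 in the fit of these 5 libraries alone. With the length slope as a covariate none of the 3 was called, with values of 0.68 for Atf4, 1.04 for Trib3 and 0.56 for Ddit3 (adjusted p = 0.102, 0.294 and 0.31). Gdf15, Atf3, Mthfd2 and Ppp1r15a were higher as well (0.77, 0.56, 0.50 and 0.45), but Mthfd2 was not called without NaCl 2 (adjusted p = 0.0787), nor Ppp1r15a without NaCl 1 or NaCl 2 (0.0516 and 0.0929). With the slope as a covariate Gdf15, Mthfd2 and Ppp1r15a were not called (0.18, 0.06 and 0.02; adjusted p = 0.702, 0.919 and 0.963). Xbp1 had 119.8, 92.5 and 116 CPM with KCl and 144 and 136 CPM with NaCl (log2 fold change −0.37, SE 0.10, adjusted p = 0.0154); the call was lost without NaCl 1 or NaCl 2. The other genes called lower with KCl were Eif2ak1, Eif2ak3, Jdp2, Aldh18a1 and Pycr1, with log2 fold changes of −0.55, −0.36, −0.44, −0.51 and −0.98, and all 5 lost their call without NaCl 2.

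For Asns the values were 96.0, 78.5 and 105 CPM with KCl and 74.6 and 75.3 CPM with NaCl (log2 fold change 0.30, SE 0.11, adjusted p = 0.0578), and for Psat1 37.8, 34.4 and 43.8 CPM and 42.3 and 40.8 CPM (log2 fold change −0.12, SE 0.12, adjusted p = 0.494). Chac1 measured 0.806, 1.34 and 1.63 CPM with KCl and 0.419 and 0.915 CPM with NaCl (log2 fold change 0.90, SE 0.52, adjusted p = 0.199), and Hspa5 955, 887 and 968 CPM and 993 and 1009.7 CPM (log2 fold change −0.11, SE 0.07, adjusted p = 0.258). None of the 4 was called. The log2 differences for Mthfd1l, Pck2, Slc7a5, Slc7a1 and Herpud1 were 0.03, 0.14, −0.19, −0.09 and 0.11, with standard errors of 0.10 to 0.15 and no call. Of the other lists, further ATF4 targets had 5 of 16 higher with KCl and none lower, led by Map1lc3b, an autophagosome protein (0.66). Over all genes 15.4% were higher and 16.2% lower. The eIF2 genes had 2 of 16 higher and 4 lower, endoplasmic reticulum genes 2 of 28 and 7, serine, glycine and folate genes 3 of 15 and 5, and mitochondrial folding genes 2 of 8 and 2.

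Floxed cells in isotonic KCl against C57BL/6J cells in conditioned medium alone differ in KCl, in how tonicity was kept and in strain, which cannot be told apart. The stress response genes stood higher in at least 1 member of every block but the sensors: 20 of 39 were higher, 2 lower and 17 not called, where 8.22% of 14676 genes were higher and 7.09% lower. The median log2 fold change was 0.45, against −0.01 over all genes. Trib3 and Chac1 showed the largest differences. A fit of these 6 libraries alone called 9 higher and 1 lower, without Xbp1, Ppp1r15a, Psph, Pck2 and 8 others, and library totals alone gave 12 and 2, without Asns (adjusted p = 0.0548), Psat1, Slc3a2 and 5 others.

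Chac1 had 14.7, 11.5 and 14.9 CPM in floxed cells with isotonic KCl against 1.39, 2.03 and 1.92 CPM in conditioned medium alone (log2 fold change 2.94, SE 0.29, adjusted p = 9.3e-06). Trib3 had 19.0, 33.2 and 24.9 CPM in floxed cells against 3.98, 3.50 and 3.72 CPM in conditioned medium alone (log2 fold change 2.78, SE 0.20, adjusted p = 5.2e-07). Gdf15 had 485, 803 and 727 CPM in floxed cells against 195, 197 and 178 CPM in conditioned medium alone (log2 fold change 1.82, SE 0.18, adjusted p = 1.1e-05). None of the 3 overlapped. Ddit3 reached 22.0, 32.5 and 28.0 CPM in floxed cells against 12.8, 13.9 and 11.3 CPM in conditioned medium alone (log2 fold change 1.12, SE 0.14, adjusted p = 9.7e-05), and Atf4 498, 1052 and 771 CPM against 301, 299 and 294 CPM (log2 fold change 1.38, SE 0.22, adjusted p = 7.9e-04). Its lowest value, in floxed replicate 1, came with a length slope of 0.10, and the values in replicates 2 and 3 with slopes of −0.15 and −0.08. Sesn2 was higher (log2 fold change 0.74, SE 0.19, adjusted p = 0.0195), a call lost without conditioned medium 1, conditioned medium 2 or floxed 3.

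Amino acid synthesis genes were higher in 7 of 10 cases with none lower. Asns had 128, 134 and 136 CPM in floxed cells against 90.3, 97.0 and 90.9 CPM in conditioned medium alone (log2 fold change 0.52, SE 0.10, adjusted p = 0.00222). Phgdh and Psph were higher (0.93 and 0.94), and so was Pck2 (log2 fold change 0.61, SE 0.12, adjusted p = 0.00284). Psat1 had 44.0, 44.7 and 45.9 CPM in floxed cells against 30.5, 36.7 and 36.6 CPM in conditioned medium alone (log2 fold change 0.37, SE 0.11, adjusted p = 0.0318); leaving out any 1 library other than floxed 1 ended that call (adjusted p up to 0.125). Pycr1, Aldh18a1 and Mthfd1l were not called (−0.04, −0.11 and −0.22). Xbp1 had 118, 118 and 115 CPM in floxed cells against 154, 152 and 152 CPM in conditioned medium alone (log2 fold change −0.39, SE 0.09, adjusted p = 0.00826) and Jdp2 had 30.3, 26.0 and 27.8 CPM against 45.3, 47.2 and 46.0 CPM (log2 fold change −0.72, SE 0.10, adjusted p = 2.8e-04), and no other gene was lower. Hspa5 had 799.6, 783 and 766 CPM in floxed cells and 848, 832 and 798 CPM in conditioned medium alone (log2 fold change −0.08, SE 0.07, adjusted p = 0.435), with overlap, and Dnajb9 was called higher (0.45) in the full set of libraries but not when any 1 of 5 of the 6 was left out. Of further ATF4 targets 9 of 16 were higher and none lower, with Slc38a2 (1.31) leading, where 8.22% of all genes were higher and 7.09% lower. The eIF2 genes had 3 of 16 higher and endoplasmic reticulum genes 5 of 28 lower. Serine, glycine and folate genes had 2 of 15 higher, and mitochondrial folding genes 1 of 8 higher.

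**Figure D4:**
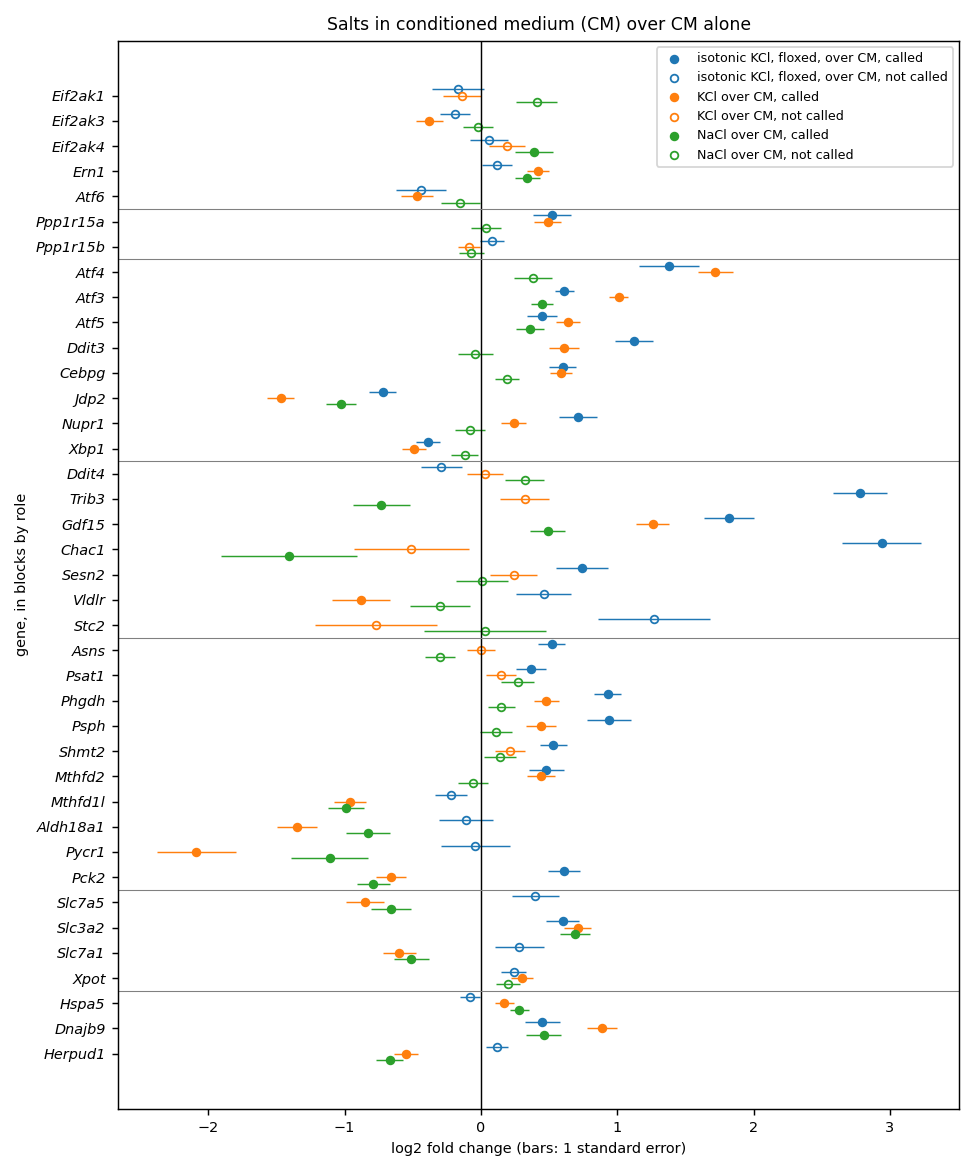
Log2 fold change over conditioned medium (CM) alone of each gene (rows, in blocks by role) in floxed cells with isotonic KCl, with KCl and with NaCl; bars are 1 standard error, filled points passed an adjusted p of 0.05, and the 3 comparisons share the same 3 CM libraries. Trib3 and Chac1 lie at 2.78 and 2.94 for isotonic KCl and at or below 0.32 for both added salts.

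Set side by side as levels, Chac1 was at 14.7, 11.5 and 14.9 CPM in floxed cells with isotonic KCl and at 0.806, 1.34 and 1.63 CPM in C57BL/6J cells with added KCl, and Trib3 at 19.0, 33.2 and 24.9 CPM and 4.97, 4.64 and 4.44 CPM. Atf4 overlapped between these groups, with 498, 1052 and 771 CPM in floxed cells and 993, 1233 and 743 CPM with added KCl. This difference was not tested, since strain and tonicity change together.

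The Kcnj2 knockout was set against floxed cells, both in isotonic KCl. Only the knockout cells carry the Cre in Lyz2. Loss of the inward rectifier channel Kir2.1 therefore cannot be told apart from the Cre and its effect on Lyz2. The deletion was visible, as Kcnj2 had 19.7, 24.4 and 29.4 CPM in knockout and 173, 139 and 147 CPM in floxed cells (log2 fold change −2.64, SE 0.19, adjusted p = 0.015), so some Kcnj2 RNA was still counted. None of the 39 stress response genes was called, in a comparison that called 0.00782% of 12782 genes higher and 0.00782% lower, 1 gene each. The median log2 fold change was −0.15, against 0.00 over all genes. By unadjusted p under 0.05, 8 of the 39 were lower and none higher, where 4.09% of all genes were lower and 1.51% higher, 716 in all. DESeq2 called 2 lower, Ddit4 (−0.75, adjusted p = 0.0468) and Psat1 (−0.47, 0.0342), and 177 genes in all. A fit of all 17 libraries called these and Vldlr lower (−0.98), and 272 genes in all. The length slope as a covariate gave 2 higher and 12 lower, Atf4 (−0.28) and Trib3 (−0.54) among the 12. That covariate fit called 1307 genes in all, 549 of them higher.

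Groups did not overlap for 13 genes, 10 below and 3 above, where 6.78% of all 12782 genes lay below and 4.46% above without overlap. Ddit4 (REDD1), an mTORC1 inhibitor, had 11.7, 11.9 and 12.9 CPM in knockout and 21.2, 16.1 and 24.6 CPM in floxed cells (log2 fold change −0.76, SE 0.19, adjusted p = 0.349). Psat1 had 30.6, 34.7 and 31.2 CPM in knockout and 44.0, 44.7 and 45.9 CPM in floxed cells (log2 fold change −0.48, SE 0.12, adjusted p = 0.334). Chac1 had 8.78, 10.7 and 9.57 CPM in knockout and 14.7, 11.5 and 14.9 CPM in floxed cells (log2 fold change −0.49, SE 0.17, adjusted p = 0.647), and Asns 123, 109.8 and 113 CPM and 128, 134 and 136 CPM (log2 fold change −0.20, SE 0.10, adjusted p = 1). All 4 lay lower in every knockout library. Ddit4 was chosen here after its values were seen. Hspa5 with 915, 870.0 and 872 CPM in knockout and 799.6, 783 and 766 CPM in floxed cells (log2 fold change 0.18, SE 0.10, adjusted p = 1) and Xbp1 with 132, 130.2 and 123 CPM and 118, 118 and 115 CPM (log2 fold change 0.14, SE 0.10, adjusted p = 1) lay higher in every knockout library, as did Atf3 (0.20).

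Atf4 had 805, 754 and 577 CPM in knockout and 498, 1052 and 771 CPM in floxed cells (log2 fold change −0.12, SE 0.28, adjusted p = 1). Ddit3 had 28.3, 27.6 and 23.0 CPM in knockout and 22.0, 32.5 and 28.0 CPM in floxed cells (log2 fold change −0.06, SE 0.18, adjusted p = 1), and Trib3 20.9, 21.1 and 16.2 CPM and 19.0, 33.2 and 24.9 CPM (log2 fold change −0.40, SE 0.23, adjusted p = 1). All 3 overlapped, and floxed replicates 1 and 2 spanned the knockout values for Atf4 and Ddit3. None of the genes in the 5 further pathway lists was called. The summed macrophage markers were 12392 to 13555 CPM in knockout and 26859 to 28857 CPM in floxed cells, mostly through Lyz2, the gene that carries the Cre, at 7406, 8370.3 and 7166 CPM in knockout and 19800.0, 24440.0 and 23140.0 CPM in floxed cells.

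Compared between genes per kilobase of exon, the levels changed order with treatment. In control cells Hspa5 led with 161 CPM per kilobase, followed by Atf3 (77.0), Slc3a2 (70.5) and Atf4 (58.9). In conditioned medium Hspa5 (195), Atf3 (154), Slc3a2 (144) and Atf4 (126) kept that order, and Gdf15 joined them at 103, against 3.93 in control. With KCl Atf4 led with 419.7, ahead of Atf3 at 312 and Gdf15 at 248 CPM per kilobase. With NaCl Hspa5 (237) still led, ahead of Slc3a2 (231). In knockout and floxed cells Gdf15 led with 419 and 363. At the other end, Stc2, Vldlr and Pycr1 stayed under 1 CPM per kilobase in every group. These are means of 2 or 3 libraries, and the orders were not tested. The length slopes given above differ between the groups, and their part in these orders was not tested.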

How the data were processed

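The authors deposited a table of raw read counts, with Ensembl mouse identifiers in rows and libraries in columns. Aligner, counting program, genome build and strand setting were not given in the sources used here. The submitters' processing notes list DESeq2 1.30.1 without saying what it was used for. Symbols and lengths came from GENCODE M21 on GRCm38. All 39 symbols matched; Ddit3 has a second identifier at 0 counts in every library, which was not used.

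Counts were tested with edgeR 4.0.16 in R 4.3.3 (robust quasi-likelihood F test, TMM factors, default filter by group), with Benjamini-Hochberg adjustment over all genes tested and a threshold of 0.05. The 11 C57BL/6J libraries were fitted together, the 6 isotonic libraries alone, and all 17 for floxed cells against conditioned medium. The shared fits assume 1 spread per gene in all groups, so they can understate the spread with KCl. The code was tested on simulated data. Counts of every replicate pair differed beyond sampling noise, so none was treated as a repeat.

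The 39 genes, their roles and the other lists (87 of 90 symbols matched) were chosen with earlier results of these data known. In each comparison, genes called with an absolute log2 fold change of at least 1 (at most 12) and Atf4, Ddit3, Trib3, Asns, Chac1, Psat1, Hspa5 and Xbp1 are given by library, and others by count, range and the examples with the smallest p. From the other lists at most 3 called genes are named. Alternatives were DESeq2 1.42.0, RLE factors, library totals alone, no filter, a stricter filter (a mean of 20 counts, and 1 CPM in 3 libraries), a replicate block, the length slope as a covariate, other sets of libraries and leaving out each library.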

Additional observations from a re-analysis of the deposited data

How the results depend on the processing

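Over 246 recomputed counts, 195 stayed within 1.5 times the reported count and 51 did not; of the single-gene values 10 reversed, 200 lost their call and 91 gained one. Library totals as the only scaling moved the median log2 fold change of all genes to −0.37 (conditioned medium against control), −0.22 (KCl) and −0.08 (NaCl against conditioned medium), −0.18 (KCl against NaCl) and −0.18 (isotonic floxed cells against conditioned medium). The share of called genes that were higher was then 24.9%, 32.6%, 37%, 30.1% and 26.1%, against 50.7%, 49.3%, 48%, 48.6% and 53.7% as reported. Under that scaling 11 of the 39 genes were lower in conditioned medium, 4 were higher with NaCl and 12 were higher in isotonic floxed cells. Ern1 (−0.33), Xbp1 (−0.27) and Hspa5 (−0.07) reversed in conditioned medium against control, and Hspa5 (−0.04) with KCl. With the length slope as a covariate, KCl against conditioned medium had 6 lower and 4388 genes called, KCl against NaCl 2 higher, 0 lower and 143 genes, and the knockout 2 higher, 12 lower and 1307 genes. Eif2ak1 (0.44) and Atf6 (0.05) reversed with KCl, and Eif2ak1 (0.13), Psph (0.00), Aldh18a1 (0.05) and Dnajb9 (−0.12) in KCl against NaCl; the cause was not tested. In fits of only the groups compared, NaCl had 14 of the 39 higher and 6245 genes called, KCl against NaCl 0, 0 and 8, and isotonic floxed cells 9, 1 and 411. For the knockout, DESeq2 gave 2 lower and 177 genes, no filter 12 genes, and all 17 libraries 3 lower and 272 genes. Without the low-count filter 1 of the 39 was lower in isotonic floxed cells. Whether the replicate numbers pair the libraries was not settled. Residual correlations of C57BL/6J libraries with a shared number ran from −0.06 to 0.19, and 4 of those 15 exceeded 0.1. With different numbers they ran from −0.15 to 0.1, and 0 of those 30 exceeded it. Isotonic libraries leaned the other way: 1 of 3 correlations exceeded 0.1 with a shared number, and 3 of 6 with different ones. A replicate block changed no count of called genes by over 1.5 times except in the knockout, where it called 0 genes. Leaving out 1 library in turn gave, for NaCl, 2 to 7 higher, 5 to 9 lower and 2224 to 3472 genes; for KCl against NaCl 4 to 13 higher, 0 to 9 lower and 960 to 6988 genes; for the knockout 0 to 14 genes; and for isotonic floxed cells 1079 to 5587 genes, the highest without floxed 1. Depth did not limit most genes, but Pycr1, Chac1, Stc2, Vldlr and Trib3 rested on few counts.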
